A study of Cavia porcellus with 12 samples.

Results

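The 10 genes described here encode the core of the Notch pathway: the ligands JAG1, JAG2 and DLL4, the receptors NOTCH1, NOTCH2 and NOTCH3, the DNA-binding factor RBPJ and the target genes HES1, HEY1 and HEYL. They were chosen as named members of the pathway that are rows of the deposited expression table of guinea pig liver, and all 10 were found among its 11896 human orthologue symbols. Messenger RNA was sequenced from the left lateral liver lobe of 12 female Dunkin Hartley guinea pigs, with 6 animals in each group. Controls were fed chow and had healthy livers, whereas animals with non-alcoholic steatohepatitis (NASH) were fed a high fat diet, both for 25 weeks. The NASH animals sequenced were those with bridging fibrosis, so that diet and disease cannot be told apart. All animals were 10 weeks old on arrival, before a week of acclimatisation. The livers had not been perfused, so blood remained in the tissue.

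Notch signalling runs between touching cells. A ligand on one cell pulls on a receptor on its neighbour, proteases then release the intracellular domain of the receptor, and this domain joins RBPJ and Mastermind coactivators on DNA to switch on genes of the HES and HEY families, which themselves encode transcriptional repressors. In the liver the pathway is best known for building bile ducts, where JAG1 is the main ligand, and for its part in blood vessels, where DLL4 and NOTCH1 act.

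Library totals ranged from 16980274 to 33091460 counts. Levels are given below as CPM (counts scaled to a common library total with TMM factors) and were compared between groups and not between genes, because transcript lengths were not used. A gene was called higher or lower in NASH when the adjusted p-value of edgeR's quasi-likelihood test, taken over all 11896 symbols, was under 0.05. A count of 0 in an animal allows a level of up to 0.214 CPM in controls and 0.105 CPM in NASH, taken as 3 counts and covering counting error only. Of all symbols, 6411 (53.9%) were called, with 3318 (27.9%) higher and 3093 (26.0%) lower. In bulk liver, fewer cells of a type and less RNA per cell cannot be told apart.

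JAG1, HEYL and RBPJ were higher in NASH, and HES1 was lower. The other 6 members did not pass the test. The 4 calls among 10 members were thus no more frequent than calls among all symbols, and the 3 higher and 1 lower stood beside background shares of 27.9% and 26.0%. The median log2 fold change of the members was 0.46, beside 0.0018 over all symbols. JAG1 and RBPJ were above every control in all NASH animals, which was the case for 18.4% of all symbols (33.7% in either direction). At an unadjusted p under 0.05, 5 members and 6991 of all symbols passed.

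**Figure D1:**
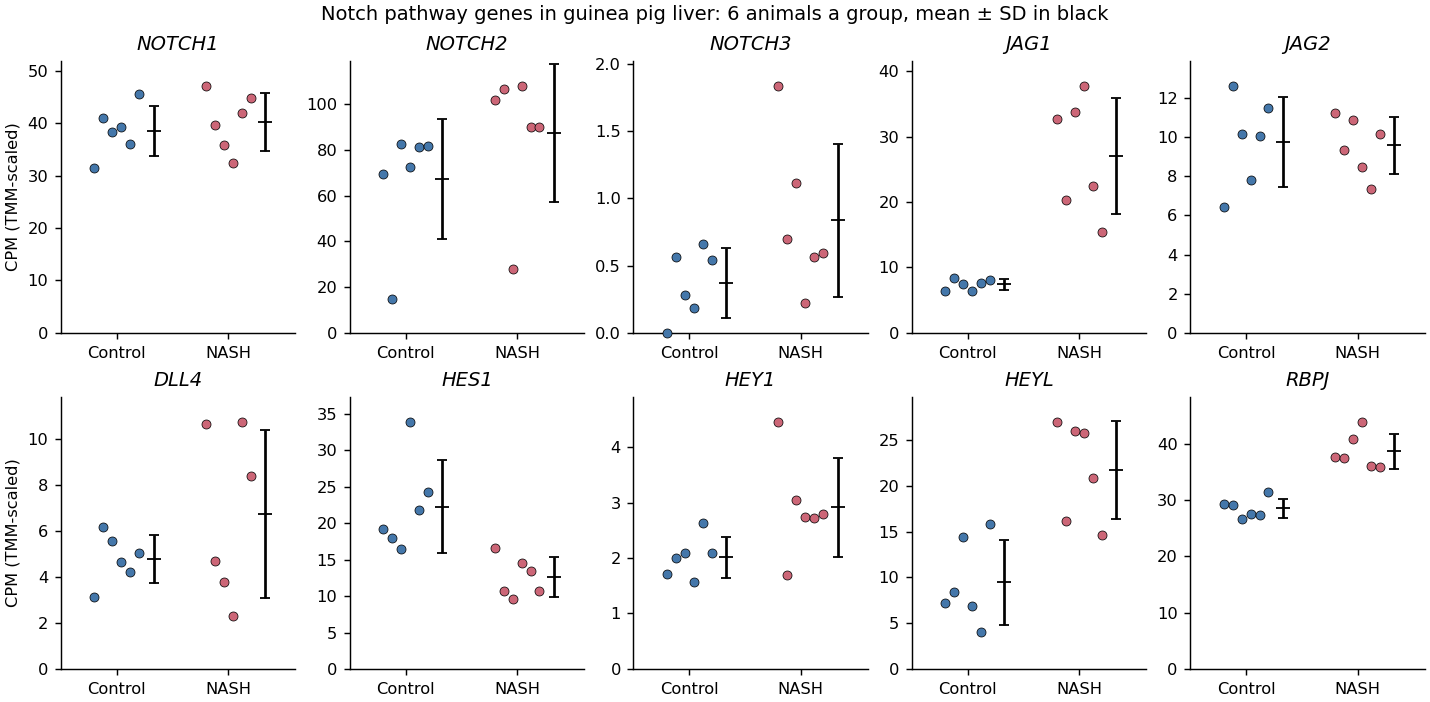
CPM of the 10 Notch pathway genes in each of 6 control and 6 NASH animals (points), with the mean and SD of each group in black and a separate axis from 0 for each gene. JAG1 and RBPJ show separate groups, HEYL and HES1 overlap slightly, and 1 animal in each group lies far below the rest for NOTCH2.

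JAG1, the ligand that drives bile duct formation, had the greatest change of the 10 members. Its lowest, median and highest values were 6.43, 7.51 and 8.41 CPM in controls and 15.4, 27.5 and 37.8 CPM in NASH. Every NASH animal was well above every control, and NASH animals spread more widely among themselves. The mean level was 7.39 ± 0.805 CPM in controls and 27.0 ± 8.86 CPM in NASH (SD, n = 6 each). The log2 fold change was 1.87 (SE 0.204, edgeR adjusted p = 9.04e-06), or 3.65-fold, with a 95% interval from 1.43 to 2.31 on the log2 scale. Of all symbols, 94.4% had a lower log2 fold change than JAG1.

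JAG2, the second Jagged ligand, had NASH values that all lay inside the control range. Its lowest, median and highest values were 6.43, 10.1 and 12.6 CPM in controls and 7.37, 9.75 and 11.2 CPM in NASH. The log2 fold change of -0.03 (SE 0.16, edgeR adjusted p = 0.882) had a 95% interval from -0.38 to 0.32. With library size alone, under which the median of all symbols shifts to 0.476, JAG2 was at 0.44, which is -0.037 relative to that median.

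DLL4, the Delta-type ligand of endothelial cells, spread further in NASH than in controls. Its lowest, median and highest values were 3.14, 4.84 and 6.15 CPM in controls and 2.31, 6.52 and 10.7 CPM in NASH. NASH animals 2, 41 and 65 lay above every control, animal 20 lay below every control, and the groups overlapped. In log2 terms the fold change was 0.49 (SE 0.346, edgeR adjusted p = 0.25), with a 95% interval from -0.26 to 1.24. It was 0.31 both without NASH animal 41 and without NASH animal 2 (edgeR adjusted p = 0.48 and 0.475), and 0.30 with limma-voom. With library size alone it was called at 0.97 (edgeR adjusted p = 0.0258), which is 0.49 relative to the median of all symbols.

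Whether ligands moved apart was asked within each animal, by taking the difference of log2 CPM between a pair of genes of one role, so that the scaling of the animal cancels. Over 9 such pairs among ligands, receptors and targets, 2-sided exact permutation tests over the animals were adjusted together, and the smallest p they can give is 0.00216. The change of JAG1 exceeded that of JAG2 by 1.80 log2 units (exact permutation p = 0.00216, adjusted 0.00649), and the differences of the groups did not overlap. It exceeded that of DLL4 by 1.48 log2 units (exact permutation p = 0.00433, adjusted 0.00974), with overlap. JAG2 and DLL4 differed in their change by -0.32 log2 units (exact permutation p = 0.418, adjusted 0.496).

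**Figure D2:**
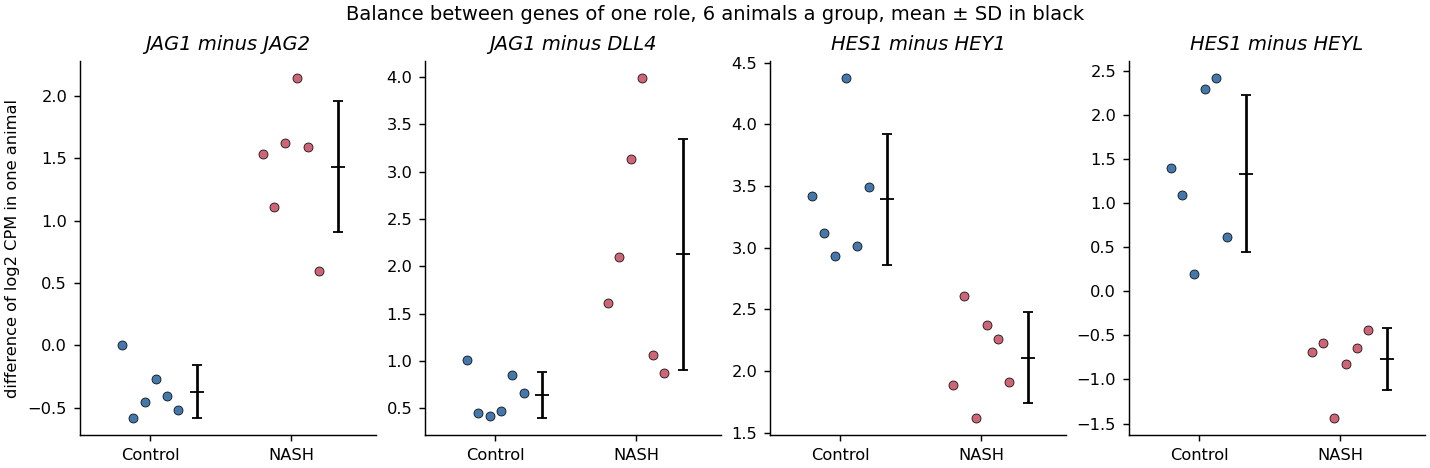
Within-animal difference of log2 CPM for 4 pairs of genes of one role, in 6 control and 6 NASH animals (points), with the mean and SD in black. The difference of JAG1 and JAG2 runs from -0.58 to 0 in controls and from 0.60 to 2.14 in NASH, and the differences of HES1 with HEY1 and with HEYL are lower in every NASH animal than in any control.

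Among the receptors, none of NOTCH1, NOTCH2 and NOTCH3 passed the test. NOTCH1, a receptor of endothelial and many other cells, was at 31.4, 38.8 and 45.5 CPM (lowest, median, highest) in controls and at 32.4, 40.8 and 47.1 CPM in NASH. The groups lay nearly on top of each other. NOTCH1 had a log2 fold change of 0.06 (SE 0.107, edgeR adjusted p = 0.65). Its 95% interval from -0.17 to 0.29 leaves out a change of the size seen for RBPJ. With library size alone it was called at 0.53 (edgeR adjusted p = 0.00125), which is 0.057 relative to the median of all symbols.

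NOTCH2, the receptor required in bile duct formation, had 1 animal far below the others in each group. In controls, animal 10 was at 14.7 CPM, whereas the other 5 lay between 69.4 and 82.7 CPM. In NASH, animal 11 was at 28.0 CPM, whereas the other 5 lay between 89.9 and 108 CPM. Leaving these animals aside, every NASH animal was above every control. Over all 12 animals the log2 fold change was 0.38 (SE 0.384, edgeR adjusted p = 0.423), with a 95% interval from -0.45 to 1.21. Without both animals, a choice made after the values were seen, it was 0.36 (SE 0.0856, edgeR adjusted p = 0.00556). Leaving out control 10 alone gave 0.17 (edgeR adjusted p = 0.617) and leaving out NASH animal 11 alone gave 0.57 (edgeR adjusted p = 0.172). Both the size of the change and the call thus depend on these 2 animals. Library totals of both animals were within the range of the others. Among the other members, control 10 was the highest control for JAG1 (8.41 CPM), JAG2 (12.6 CPM) and DLL4 (6.15 CPM), and NASH animal 11 the lowest NASH animal for HES1 (9.53 CPM).

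NOTCH3, the receptor of pericytes and vascular smooth muscle, was barely detected. Its total over all animals was 203 counts, just over the minimum of 200 for a symbol to be in the table. Most of these counts came from NASH animals, so the gene entered the table through the group in which it is higher, and its change has to be read with that in mind. A control had 0 to 16 counts (0 to 0.659 CPM, median 0.409 CPM) and a NASH animal 7 to 54 counts (0.218 to 1.84 CPM, median 0.648 CPM). The groups overlapped, and several animals were near the limit that 3 counts set. The log2 fold change was 1.12 (SE 0.577, edgeR adjusted p = 0.118), and the 95% interval from -0.13 to 2.37 includes both no change and a large rise. Without NASH animal 2 the log2 fold change was 0.73 (edgeR adjusted p = 0.292), and with library size alone it was 1.599 (edgeR adjusted p = 0.0257), or 1.12 relative to the median of all symbols. None of the 3 pairs of receptors passed the exact permutation test of a difference in their change, with adjusted p-values of 0.12 for NOTCH1 and NOTCH3 and of 0.496 for both pairs with NOTCH2.

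RBPJ, the factor through which all Notch receptors reach DNA, was higher in NASH by a small margin. Its lowest, median and highest values were 26.6, 28.4 and 31.4 CPM in controls and 35.8, 37.6 and 43.9 CPM in NASH. All NASH animals were above all controls. The mean level was 28.6 ± 1.72 CPM in controls and 38.6 ± 3.15 CPM in NASH (SD, n = 6 each). RBPJ had a log2 fold change of 0.44 (SE 0.0694, edgeR adjusted p = 0.000173), or 1.35-fold, with a 95% interval from 0.29 to 0.59.

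The targets went in different directions. HEYL, a target known from vascular smooth muscle and pericytes, was at 4.03, 7.79 and 15.8 CPM (lowest, median, highest) in controls and at 14.6, 23.3 and 27.0 CPM in NASH. Controls 31 and 56 stood above the other controls, and the groups touched only where control 56 exceeded NASH animal 65. The mean level was 9.46 ± 4.64 CPM in controls and 21.7 ± 5.37 CPM in NASH (SD, n = 6 each). This is 1.2 as a log2 fold change (SE 0.3, edgeR adjusted p = 0.00453), or 2.30-fold, with a 95% interval from 0.55 to 1.86.

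HES1, a repressor that many cell types express and that hormones and growth factors also regulate, was lower in NASH. Its lowest, median and highest values were 16.5, 20.5 and 33.9 CPM in controls and 9.53, 12.1 and 16.7 CPM in NASH. Control 32 was the highest, and only the highest NASH animal exceeded the lowest control. The mean level was 22.3 ± 6.35 CPM in controls and 12.6 ± 2.73 CPM in NASH (SD, n = 6 each). The log2 fold change was -0.82 (SE 0.188, edgeR adjusted p = 0.00247), with a 95% interval from -1.23 to -0.42, so that the control level was 1.77-fold that in NASH. This call depends on scaling. With library size alone HES1 was at -0.34 (edgeR adjusted p = 0.143), which is -0.82 relative to the median of all symbols.

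HEY1, a target in endothelial cells, was low in both groups. Its lowest, median and highest values were 1.56, 2.04 and 2.63 CPM in controls and 1.69, 2.77 and 4.46 CPM in NASH, which correspond to 24 to 64 and 58 to 131 counts. NASH animal 2 stood above the rest, animal 9 was within the lower part of the control range, and the other 4 were above every control. HEY1 had a log2 fold change of 0.52 (SE 0.214, edgeR adjusted p = 0.0549, unadjusted p = 0.03), with a 95% interval from 0.06 to 0.99. With DESeq2 the adjusted p was 0.0472, and without NASH animal 9 that of edgeR was 0.0135. With limma-voom it was 0.131, and without NASH animal 2 that of edgeR was 0.139, at a log2 fold change of 0.36. HEY1 thus fell on either side of the threshold.

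The targets also moved apart within animals. The change of HES1 was below that of HEY1, with a difference of -1.28 log2 units, and below that of HEYL, with a difference of -2.10 log2 units (exact permutation p = 0.00216, adjusted 0.00649 for each). Neither difference overlapped between groups, and neither depends on how the animals were scaled. HEY1 changed less than HEYL, with a difference of -0.82 log2 units (exact permutation p = 0.026, adjusted 0.0468), but this call was lost in 9 of the 12 fits that leave out 1 animal, with adjusted p-values up to 0.109, and with a prior count of 0.5 (adjusted p = 0.0545).

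**Figure D3:**
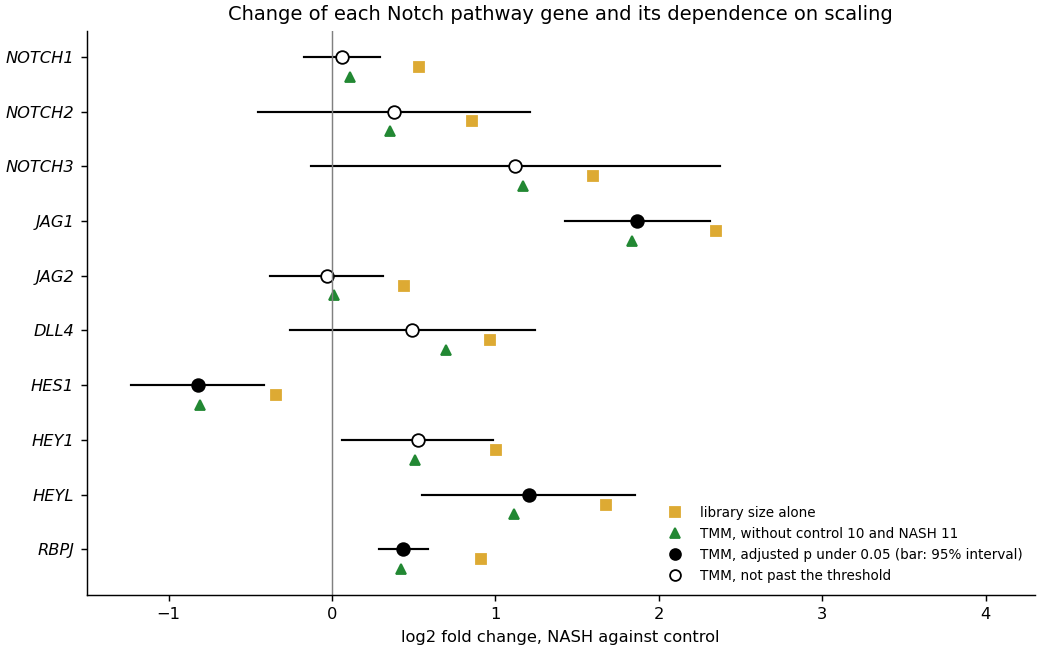
Log2 fold change of NASH against control for each member (x axis), with filled circles for calls at an adjusted p under 0.05, open circles for the rest and lines for the 95% interval. Squares show library size alone, which moves each gene to the right by about 0.476, the shift of the median of all symbols, and triangles show the fit without control 10 and NASH animal 11.

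Genes around this core were taken from a list of 60 other pathway genes, of which 37 were in the table. Of these, 11 were higher, 5 were lower and 21 did not pass the test, beside the background of 53.9% called. Their median log2 fold change was 0.09, and 14 did not overlap between groups, beside 33.7% of all symbols. NOTCH4 and the targets HEY2, NRARP and SOX9 were not among the symbols and were not analysed here.

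On the side of the ligand-bearing cell, both measured genes of ligand endocytosis were higher. NEURL1B, a ubiquitin ligase that makes ligands competent to signal, was at 12.7, 18.8 and 19.5 CPM (lowest, median, highest) in controls and at 34.8, 48.2 and 76.2 CPM in NASH. The groups lay far apart, with a log2 fold change of 1.55 (SE 0.18, edgeR adjusted p = 1.47e-05). EPN2, an endocytic adaptor, had a log2 fold change of 0.49 (edgeR adjusted p = 0.000597). The other ligands measured, DLL1 (-0.25) and DLK2 (-0.27), did not pass the test.

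Enzymes that put sugars on the receptors were split, with 2 of 4 higher and 1 lower. MFNG, a fringe glycosyltransferase that alters which ligands a receptor favours, was at 0.286, 0.913 and 1.35 CPM (lowest, median, highest) in controls and at 1.93, 2.84 and 3.604 CPM in NASH. All NASH animals were above all controls, with a log2 fold change of 1.62 (SE 0.272, edgeR adjusted p = 0.000266). A control had only 4 to 24 counts of MFNG and a NASH animal 59 to 110. Most of its 644 counts came from NASH animals, so its place in the table rests on the group in which it is higher. POFUT1, which adds the O-fucose that fringe enzymes extend, had a log2 fold change of 0.66 and was called higher. POGLUT1, an O-glucosyltransferase, had one of -0.55 and was called lower, a call lost with library size alone (-0.071, which is -0.55 relative to the median of all symbols).

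All 9 listed genes of receptor cleavage were measured, and 4 were higher and 3 lower. ADAM10, the protease that makes the ligand-dependent cut, was at 52.7 ± 2.61 CPM in controls and 86.0 ± 9.20 CPM in NASH (SD, n = 6 each), which is 0.71 as a log2 fold change (edgeR adjusted p = 6.83e-06). ADAM17, a related protease, was at 0.51 on the same scale, and NCSTN, a subunit of γ-secretase, was at 0.18, both called higher. PSEN2, a catalytic subunit of γ-secretase, was at 432, 482 and 626 CPM (lowest, median, highest) in controls and at 190, 207 and 289 CPM in NASH. Every NASH animal was below every control, with a log2 fold change of -1.11 (SE 0.132, edgeR adjusted p = 1.61e-05), and PSEN2 was still called lower with library size alone (-0.64, edgeR adjusted p = 0.00034). FURIN, which cuts receptors during their maturation, was at -0.69 and the γ-secretase subunit PSENEN at -0.41, both called lower, but with library size alone neither passed the test and PSENEN turned to 0.07. Relative to the median of all symbols under that scaling, FURIN was at -0.70 and PSENEN at -0.41.

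Among 6 coactivators only MAML2 passed the test. This Mastermind protein bridges RBPJ and the receptor fragment to the transcription machinery. Its CPM was 0.461, 0.624 and 1.08 (lowest, median, highest) in controls and 1.505, 2.02 and 2.39 in NASH, without overlap, and the log2 fold change was 1.44 (SE 0.247, edgeR adjusted p = 0.000312). A control had 7 to 25 counts of MAML2 and a NASH animal 44 to 79. As for NOTCH3, most of its 463 counts came from NASH animals. Its place in the table thus rests on the group in which it is higher. MAML1 had a log2 fold change of 0.14 and CREBBP, an acetyltransferase and the lowest of the 6, one of -0.30. KAT2A shares its count row with another symbol, so its value cannot be assigned to it alone.

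Of 6 corepressors, HDAC1 was higher and TLE1 lower. HDAC1, a histone deacetylase found in many repressor complexes besides those of RBPJ, was at 88.8, 96.0 and 101 CPM (lowest, median, highest) in controls and at 168, 192 and 219 CPM in NASH. The groups were far apart, with a log2 fold change of 1.002 (SE 0.0679, edgeR adjusted p = 2.25e-07). TLE1, a Groucho-type corepressor that HES proteins recruit, had a log2 fold change of -0.68 (edgeR adjusted p = 0.000146), a call lost with library size alone (-0.20, which is -0.68 relative to the median of all symbols).

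Of 6 genes of receptor turnover only DTX4 passed the test. DTX4, a Deltex ubiquitin ligase that acts on Notch receptors and other proteins, had the greatest change of the 37. It was at 2.26, 2.93 and 3.64 CPM (lowest, median, highest) in controls and at 8.98, 9.76 and 12.9 CPM in NASH. The groups were far apart, with a log2 fold change of 1.78 (SE 0.142, edgeR adjusted p = 7.35e-07). NUMB, the endocytic Notch antagonist, had a log2 fold change of -0.10, and the lowest of the 6 was ITCH, a ubiquitin ligase, at -0.11. The remaining targets measured, HES2 (0.38) and HES6 (0.30), did not pass the test.

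**Figure D4:**
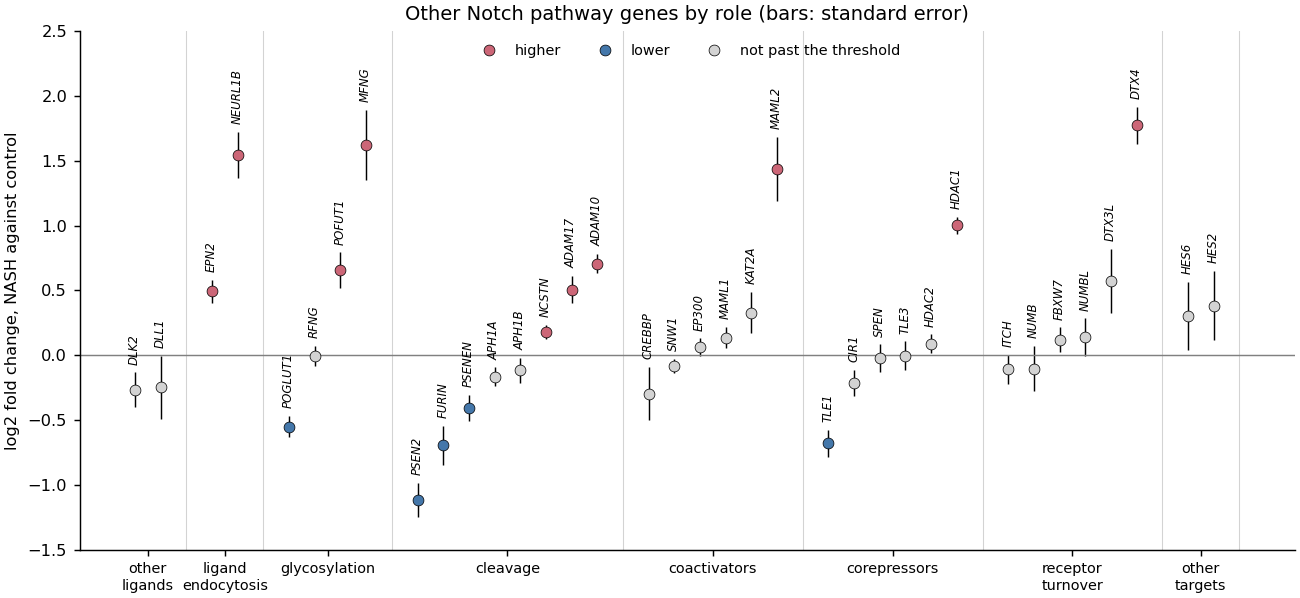
Log2 fold change of NASH against control (y axis) for further Notch pathway genes, grouped by role, with bars for the standard error. Red marks genes called higher, blue genes called lower and grey those not past the threshold, and DTX4 lies highest and PSEN2 lowest.

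Markers of cholangiocytes, of stellate cells and of hepatocytes differed between the groups, whereas sums of endothelial and smooth muscle markers overlapped. Of 8 cholangiocyte markers 6 were measured, and 5 of them were higher in NASH, among them the duct keratins KRT7 (3.09 on the log2 scale) and KRT19 (1.65) and the chloride channel CFTR (3.09). Their summed level was 90.9 to 121 CPM in controls and 312 to 547 CPM in NASH. None of the 6 was at 0 in any animal.

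All 8 stellate cell and myofibroblast markers were measured. Among these, 5 were higher, including PDGFRB (1.79) and COL1A1 (4.21 on the log2 scale), and LRAT, the retinol-storing enzyme of quiescent stellate cells, was lower (-0.57). Their sum was 299 to 400 CPM in controls and 915 to 2049 CPM in NASH. Of 7 hepatocyte markers 6 were called lower, and the other, APOA1, was at -0.83 on the log2 scale (edgeR adjusted p = 0.0597). Their sum was 94390 to 117600 CPM in controls and 37230 to 58560 CPM in NASH.

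Sums of endothelial markers overlapped between groups, at 542 to 681 CPM in controls and 578 to 828.8 CPM in NASH. Of 8 such markers, 3 were higher, VWF (1.46), PECAM1 (0.47) and STAB2 (0.45), and 2 were lower, LYVE1 (-0.81) and TEK (-0.36). Sums of the vascular smooth muscle markers overlapped too, at 57.4 to 91.8 CPM in controls and 53.4 to 77.4 CPM in NASH, with 0 of 4 called by edgeR and CNN1 and ACTG2 at 0 in some animals. Most of the smooth muscle sum came from SMTN, at a mean of 62.6 CPM in controls and 60.6 CPM in NASH. The 4 measured erythroid markers were higher, from 57.4 to 172 CPM in controls to 427 to 4531 CPM in NASH, a sum that includes HBA1, whose count row also carries another symbol. Macrophage markers (2 of 5 higher, 1 lower) and T cell markers (1 of 6 higher, 1 lower) had overlapping sums. Most of the T cell sum came from CD3E, the lower one, at a mean of 69 CPM in controls and 33 CPM in NASH. The part of the makeup of the tissue in the changes of JAG1, HEYL, RBPJ and HES1 was not tested.

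Within the NASH group, JAG1 was compared with the marker sums from animal to animal. Over these 6 animals Pearson's r between JAG1 and the summed cholangiocyte markers was 0.986 (exact permutation p = 0.00139) and Spearman's rho was 1 (exact permutation p = 0.00278). Without the 2 animals farthest from the median of JAG1, r was 0.958. The relation with hepatocyte markers was the opposite, with r = -0.951 (exact permutation p = 0.00278), rho = -0.943 (exact permutation p = 0.0167) and r = -0.847 without 2 animals. With stellate cell and myofibroblast markers JAG1 had r = 0.86 (exact permutation p = 0.0264), rho = 0.886 (exact permutation p = 0.0333) and r = 0.726 without 2 animals. RBPJ had r = 0.782 (exact permutation p = 0.0681) with cholangiocyte and r = 0.817 (exact permutation p = 0.0458) with stellate cell markers, with rho = 0.943 (exact permutation p = 0.0167) for each, and r = 0.525 and r = 0.836 without 2 animals. These were among 64 relations of the 4 called members with 8 marker lists in each group, chosen after the changes were known, and none passed the adjustment over the 64 (smallest adjusted p = 0.0889). In controls, r between JAG1 and cholangiocyte markers was -0.364 (exact permutation p = 0.483), with rho -0.314 (exact permutation p = 0.564) and r = -0.853 without 2 animals. JAG1 had r = 0.327 with hepatocyte and r = -0.319 with stellate cell markers in controls. RBPJ had r = -0.434 with cholangiocyte and r = 0.587 with stellate cell markers there.

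HEYL followed a similar pattern in NASH, with r = 0.964 (exact permutation p = 0.00833) and rho = 0.771 (exact permutation p = 0.103) against the cholangiocyte sum, r = 0.787 without 2 animals and an adjusted p of 0.133. In controls HEYL had r = 0.376 with that sum. Among the members themselves, JAG1 and HEYL had r = 0.958 in NASH (exact permutation p = 0.00833, rho = 0.771, exact permutation p = 0.103), and r = 0.948 without 2 animals. NOTCH1 and DLL4, which act together in blood vessels, had r = 0.943 in NASH (exact permutation p = 0.00556, rho = 0.829, exact permutation p = 0.0583), and r = 0.849 without 2 animals. RBPJ went the opposite way to both in NASH, with r = -0.893 with DLL4 (exact permutation p = 0.0153, rho = -0.714, exact permutation p = 0.136, r = -0.702 without 2 animals) and r = -0.884 with NOTCH1 (exact permutation p = 0.0194, rho = -0.657, exact permutation p = 0.175, r = -0.964 without 2 animals). In controls, r was -0.0559 for RBPJ with DLL4 and 0.386 for RBPJ with NOTCH1. It was 0.277 for JAG1 with HEYL and 0.794 for NOTCH1 with DLL4 in controls. JAG1 and JAG2 had r = 0.969 in controls (exact permutation p = 0.00278, rho = 0.943, exact permutation p = 0.0167), r = 0.974 without 2 animals, and r = 0.132 in NASH. Over the 90 relations of this family none passed the adjustment (smallest adjusted p = 0.229).

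**Figure D5:**
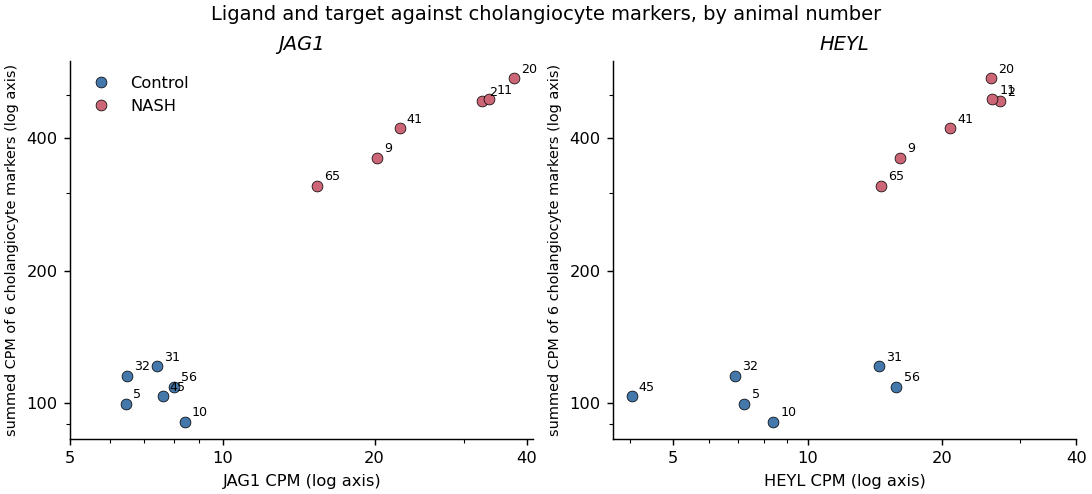
Summed CPM of 6 cholangiocyte markers (y axis, log scale) against CPM of JAG1 and HEYL (x axis, log scale) in each animal, labelled by its number. NASH animals lie above controls in both panels, and within NASH the animals with the highest JAG1 have the highest marker sum.

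The symbols most like each member were sought by the correlation of deposited log2 values, taken as deviations from the group means over 12 animals, and are given as a description. JAG1 was most like VSIG1 (r = 0.973), MBOAT1 (0.956) and MAP2K6 (0.942). HEYL was most like OLFML3 (0.905), DDX27 and DUS4L (0.903 each). RBPJ was most like RBMX (0.938), PLEKHG1 (0.937) and CDK5RAP2 (0.923). HES1 had the lower values of 0.875 with CUBN and 0.873 with MUSTN1. NOTCH1 was most like EXOC3L2 (0.954), NOTCH2 like SZRD1 (0.938), NOTCH3 like HDGFL2 (0.927), DLL4 like WDR46 (0.923), JAG2 like CCHCR1 (0.899) and HEY1 like IER5L (0.867). The other members were left out of this search.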

How the data were processed

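Liver RNA of 6 NASH and 6 control guinea pigs was analysed, 1 library per animal. The authors deposited raw read counts per locus, made with Trimmomatic 0.38.0, HISAT2 2.1.0 (Cavpor3.0) and StringTie 1.3.6 with multimapped reads ignored, and log2 values from the rlog transformation of DESeq2 for rows with a human orthologue symbol and at least 200 counts. The count table has no symbols, so the transformation was repeated with DESeq2 1.42.0 and each of 11896 symbols was matched to a count row, all within 1e-05 on the log2 scale. Each member has a row of its own. Rows with symbols held 78.2% to 79.9% of an animal's counts, and 0 columns belonged to other series.

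Groups were compared with edgeR 4.0.16 in R 4.3.3 (TMM factors, robust glmQLFit, glmQLFTest, Benjamini-Hochberg over 11896 symbols, adjusted p under 0.05). Log2 CPM values use a prior count of 2. Library totals ranged from 16980274 to 33091460. The p-values of the group comparison weigh the difference of the groups against the spread between animals. Alternatives were other scalings, DESeq2, limma-voom, limma 3.58.1 on rlog values, other filters, a threshold of 0.01, a prior count of 0.5 and each animal left out. Scripts were tested on simulated data.

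The members and lists were chosen with earlier results of these data known. Named genes are all members, genes of the other Notch list called with a log2 fold change of 1 or more in size, the extremes of each role, defining markers, and the symbols most like each member; EPN2, ADAM17, NCSTN, FURIN, PSENEN, POFUT1, POGLUT1, TLE1, MAML1 and NUMB partly fall outside it and were added after their values were seen. No coordinates or sequences are given, since a genome of the files' build was not used here, and the planned motif search was not run. Values of some listed genes are not reported here, though they remain in the counts.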

Additional observations from a re-analysis of the deposited data

Results flagged for a closer look

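NOTCH2 stood out in 1 animal of each group. Control 10 was at 14.72 CPM, with the nearest control at 69.39 CPM, and the gap took up 0.804 of the range of the group. NASH animal 11 was at 27.98 CPM, with the nearest NASH animal at 89.91 CPM, a gap of 0.774 of the range. Both exceed the critical value of 0.625 for 6 animals. Of 8952 count rows that carry a symbol and have a mean above 5 CPM, 42 had both animals below all others. NOTCH2 had the lowest ratio of the higher of both to the lowest of the other 10 animals (0.403, with the next at 0.653). This ranking was made after the values were seen, and the cause was not tested.

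DTX4 was at 12.85 CPM in NASH animal 41, with the next at 9.943 CPM, a gap of 0.751 of the range. These 3 came from 32 groups of 16 genes, and chance places an animal apart in about 1 in 20 groups.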

How the results depend on the processing

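JAG1, HEYL and RBPJ were called higher under all 8 other scalings, tools and filters, at the threshold of 0.01, with each count row entered once, without both animals of low NOTCH2 (the last 2 chosen after seeing the data) and with each animal left out, where the log2 fold changes ranged from 1.75 to 1.98, from 1.04 to 1.41 and from 0.40 to 0.47. HES1 ranged from -0.92 to -0.66 with an animal left out and lost its call with library size alone. That scaling gave 8 members called, all higher, and 29 other Notch genes called (28 higher, 1 lower), and moved the split over all symbols to 7603 higher and 911 lower. Elsewhere 4 or 5 members were called, the fifth being HEY1 or, without control 10 and NASH animal 11, NOTCH2. JAG2 turned positive with upper-quartile factors (0.039), library size alone (0.44, edgeR adjusted p = 0.0324), every count row (0.055), filterByExpr (0.024) and without control 10 and NASH animal 11 (0.016), and ranged from -0.12 to 0.056 with an animal left out. The first 4 of these settings shift the median of all symbols to 0.0752, 0.476, 0.0884 and 0.0553, and relative to it JAG2 was at -0.036, -0.037, -0.033 and -0.032. With an animal left out, NOTCH2 ranged from 0.17 to 0.57, NOTCH3 from 0.73 to 1.39, DLL4 from 0.31 to 0.67 and HEY1 from 0.36 to 0.64. The difference of NOTCH2 and NOTCH3 turned to 0.15 on rlog values. That of NOTCH1 and NOTCH2 ranged from -0.66 to 0.026 with an animal left out, the latter without control 10. The cause was not tested. No paired analysis was possible because the groups share no replicate number. Among the members, the lowest totals were those of NOTCH3 (203 counts) and HEY1 (794 counts), and whether depth limited their test was not tested.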
